A study of Mus musculus with 12 samples.

Results

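The genes described here are 34 genes of the response to low oxygen and of glycolysis: the oxygen sensors Egln1 and Egln3 with the factor they act on, Hif1a, the glucose transporter Slc2a1, the enzymes from hexokinase to lactate dehydrogenase, and known hypoxia targets such as Vegfa, Ndrg1 and Bnip3. They were chosen by name: every probe whose gene name in the array files was 1 of the 34 names, or an older alias of one, was taken. All 34 had at least 1 probe, 60 probes in all, and 19 had several. After a filter on dim probes, 33 of the 34 were tested among 16748 genes. Gapdh, glyceraldehyde-3-phosphate dehydrogenase of lower glycolysis, was the member that did not pass.

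HIF-1alpha, the protein of Hif1a, is made all the time and is destroyed in oxygenated cells after prolyl hydroxylases such as those of Egln1 and Egln3 mark it. When oxygen is short it pairs with ARNT and switches on genes for glucose uptake, glycolysis and blood vessel growth, among them Egln3 itself. In macrophages, inflammatory signals also raise Hif1a mRNA, and activated macrophages burn more glucose to lactate, so these genes are followed in inflammation as well as in hypoxia.

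The cells were peritoneal macrophages of female mice aged 10 weeks, drawn out by thioglycolate and collected 96 h after its injection. They were plated, loaded overnight with 10 µg/ml cholesterol and put in medium with 25 µg/ml polymyxin B, an antibiotic that binds endotoxin. All groups share these steps. The 4 groups, with 3 arrays each, were C57BL/6 control, C57BL/6 with apoA-I, MyD88-/- control and MyD88-/- with apoA-I (called MyD88-null below). ApoA-I, the main protein of HDL, takes up cholesterol from cells. It was given at 10 µg/ml for 2 h, and the control cells were labelled as control treated for 2 h. MyD88 is an adaptor protein used by interleukin-1 receptors and by nearly all Toll-like receptors. The labels do not say what the control cells received in place of apoA-I, or whether cells of several mice were pooled. The series calls its replicates separate experiments of 4 samples each. The comparisons ask what apoA-I changed in each genotype, whether the response differed without MyD88, and whether the genotypes differed under one treatment.

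Each level below is a log2 processed intensity set relative to the 75th percentile on the same array, so 0 marks that percentile. Levels of different genes come from different probes and are not set against each other. Differences are on the log2 scale, tested with limma over all 16748 genes at once, with Benjamini-Hochberg adjustment and a threshold of 0.05 on the adjusted p. The 75th percentiles of processed intensity ran from 199 to 1408, between 57.6% and 73.6% of probes were well above background, and arrays of the same group correlated with r from 0.915 to 0.979. The lowest 75th percentile and the highest share above background were both on MyD88-null apoA-I replicate 1. For 2 arrays, replicate 2 of the C57BL/6 controls and replicate 2 of MyD88-null cells with apoA-I, the description contradicts the title about apoA-I. The titles were followed. With the treatment taken from the descriptions instead, limma called 0 of all 16748 genes in either apoA-I comparison, so no apoA-I call below holds under that reading. Myd88 itself had a mean level of 3.31 ± 0.30 (SD, n = 3) in C57BL/6 controls and 1.79 ± 0.36 in MyD88-null controls, a difference of -1.52 (SE 0.32; limma adjusted p = 0.215, or 0.00396 with the replicate number as a block). Whether its probe lies in the deleted part of the gene was not checked. All 7 macrophage markers were measured, and their summed level ran from 9.13 to 10.3 over the arrays. Of 8 neutrophil markers 3 were measured, with a summed level between -0.65 and 0.27. B cell markers (6.72 to 7.14) and mesothelial and fibroblast markers (5.79 to 7.97) were present too. No measured marker passed the test in any comparison. With the replicate block, Cd14, the endotoxin co-receptor of macrophages, was higher with apoA-I in C57BL/6 cells by 1.61. Lck of T cells was higher with apoA-I in MyD88-null cells by 0.84. Pdgfra of fibroblasts was lower in MyD88-null than in C57BL/6 controls (-2.69). With the block, 3.41%, 4.07% and 0.591% of all genes passed in these comparisons. Over the measured macrophage, T cell, and mesothelial and fibroblast markers, the median differences there were 0.09, 0.45 and -0.29. Emr1, Cd68 and Lyz2 also had higher means with apoA-I in C57BL/6 cells, and Csf1r, Itgam and Fcgr1 lower ones. Msln, Upk3b and Krt19 had higher means in MyD88-null controls, and the other mesothelial and fibroblast markers lower ones. The part of these cells in the results below was not tested, and in such bulk RNA fewer cells of a type cannot be told apart from less RNA per cell.

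After apoA-I, none of the 33 measured genes passed the test in either genotype. In C57BL/6 cells the lowest p-values were those of Hk2, Slc2a1, Eno2 and Ndrg1, all with higher means after apoA-I. In MyD88-null cells they were those of Egln3, with a higher mean, and of Mxi1 and Ankrd37, with lower means. In C57BL/6 cells 0.83% of all genes passed. In MyD88-null cells 1.14% did. At an unadjusted p under 0.05, limma counted 4 of the 33 in C57BL/6 cells, against 7.42% of all genes, and 5 of the 33 in MyD88-null cells, against 8.66%. The median change over the 33 was -0.03 in C57BL/6 cells and -0.06 in MyD88-null cells, where the medians of all genes were -0.0022 and 0.05.

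The replicate numbers pair the samples, so each comparison was also fitted with the replicate number as a block. With the block, 1 of the 33 passed in C57BL/6 cells, against 3.41% of all genes, and 1 in MyD88-null cells, against 4.07%. These were Hk2 and Egln3.

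Hif1a was measured by a probe at chr12:71899015-71899075 of build mm7, the build of all probe positions given here. In C57BL/6 cells the controls read 1.25, 1.45 and 1.49 on replicates 1 to 3 in turn, and the cells with apoA-I read 1.77, 2.61 and 2.24, without overlap. In MyD88-null cells the levels were 0.59, 1.01 and 1.51 without apoA-I and 0.37, 1.93 and 2.15 after it. The lowest of all 12 was MyD88-null apoA-I replicate 1, and these groups overlapped. The change was 0.81 (SE 0.45; limma adjusted p = 0.873) in C57BL/6 cells and 0.45 (SE 0.45; adjusted p = 0.816) in MyD88-null cells. Leaving out 1 array at a time moved the latter between 0.11 (without MyD88-null apoA-I replicate 3) and 1.00 (without MyD88-null apoA-I replicate 1).

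Egln3 encodes PHD3, the prolyl hydroxylase whose gene is itself a strong HIF target. Its probe lies at chr12:52198570-52198629. In C57BL/6 cells its levels were -1.76, -0.73 and -0.89 without apoA-I and -0.91, 0.47 and -0.01 after it. The MyD88-null controls read -2.04, -1.59 and -2.14, and the treated cells read -1.24, 0.30 and -0.48. Every MyD88-null array with apoA-I was above every MyD88-null control, while in C57BL/6 cells 1 array with apoA-I lay below 2 controls. The change in MyD88-null cells was 1.45 (SE 0.46), an intensity ratio of 2.73 with a 95% confidence interval of 1.34 to 5.6, and did not pass the limma test (adjusted p = 0.301). It passed with the replicate block (adjusted p = 0.0125). In the block fit with 1 array left out at a time it passed in 9 of 12 fits, at an adjusted p of 0.00407 to 0.0769 over all 12. The 3 fits where it did not pass left out MyD88-null apoA-I replicate 2 (0.0769), control replicate 2 (0.0734) or control replicate 3 (0.051). Without both arrays with contradicted titles it was 0.155. Within the slides that held both MyD88-null treatments, the Egln3 difference was 0.34 and 1.66. Within scan days 1, 2 and 3 it was 2.35, 0.34 and 1.66. The 0.34 sets apoA-I replicate 1 against control replicate 2, and the 2.35 sets apoA-I replicate 2 against control replicate 1. Both therefore cross replicate numbers. The same-numbered MyD88-null arrays of replicates 1 and 2 lay on different scan days. With the treatment taken from the descriptions, the Egln3 change in MyD88-null cells was 0.51. C57BL/6 cells had an Egln3 difference of 0.98 (SE 0.46), with a limma adjusted p of 0.738 and of 0.063 in the block fit.

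Egln1 encodes PHD2, the main oxygen sensor of most cells. It was lower with apoA-I in all 3 replicates of both genotypes. The change was -0.49 (SE 0.25, limma adjusted p = 0.786) in C57BL/6 cells and -0.37 (SE 0.25, limma adjusted p = 0.757) in MyD88-null cells. The MyD88-null differences were -0.88, -0.03 and -0.20 on replicates 1 to 3 in turn. Leaving out 1 array at a time moved the MyD88-null change between -0.53 and -0.23.

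**Figure D1:**
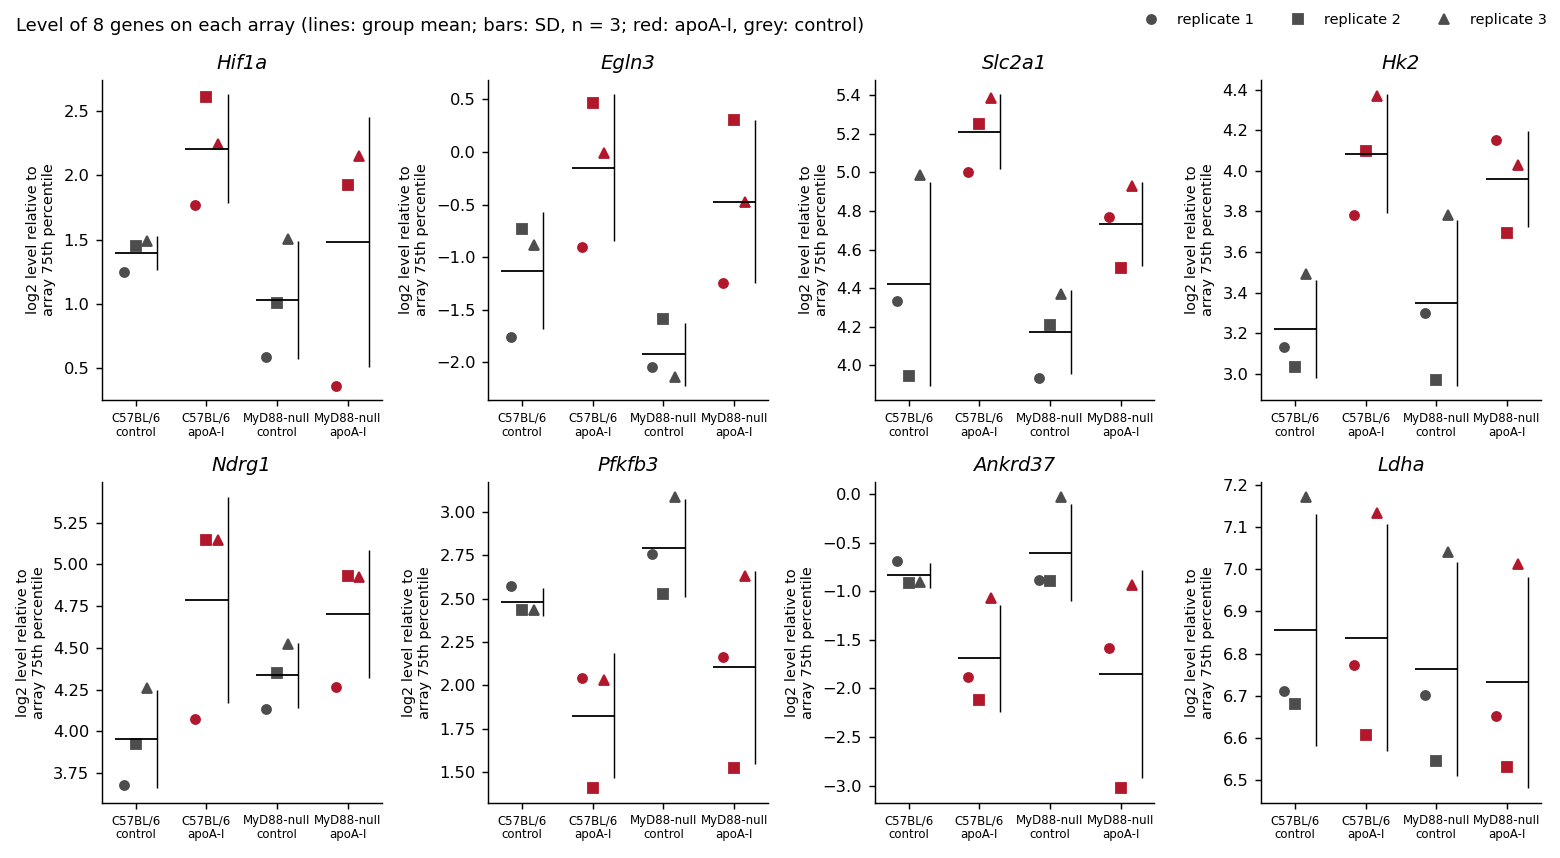
Log2 level (relative to the array's 75th percentile) of 8 genes on each of the 12 arrays, by group; marker shape gives the replicate number, lines are group means and bars 1 SD (n = 3). Hk2 and Slc2a1 with apoA-I lie above the controls of C57BL/6 cells, Egln3 above those of MyD88-null cells, and replicate 3 of Ldha is the highest array in every group.

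Glucose enters macrophages mainly through GLUT1, the product of Slc2a1 (probe at chr4:118513698-118513757). Its levels in C57BL/6 cells were 4.33, 3.94 and 4.99 without apoA-I and 5.00, 5.25 and 5.38 after it. In MyD88-null cells they were 3.94, 4.21 and 4.37 without apoA-I and 4.77, 4.50 and 4.93 after it. In neither genotype did the groups overlap, although in C57BL/6 cells the gap between control replicate 3 and apoA-I replicate 1 was small. In C57BL/6 cells Slc2a1 differed by 0.79 (SE 0.27; limma adjusted p = 0.407, and 0.0756 in the block fit), an intensity ratio of 1.73 with a 95% confidence interval of 1.13 to 2.64. In MyD88-null cells it was 0.56 (SE 0.27; adjusted p = 0.63). With the treatment taken from the descriptions, the Slc2a1 change in C57BL/6 cells was 0.23.

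Hexokinases trap glucose in the cell as glucose 6-phosphate, and Hk2 is an inducible form. Hk2 (probe at chr6:82750613-82750672) had levels of 3.13, 3.03 and 3.49 in C57BL/6 controls and 3.78, 4.10 and 4.37 with apoA-I, with no overlap. In MyD88-null cells the levels were 3.30, 2.97 and 3.78 without apoA-I and 4.15, 3.69 and 4.03 after it, where control replicate 3 lay above apoA-I replicate 2. The change in C57BL/6 cells was 0.86 (SE 0.26), an intensity ratio of 1.82 with a 95% confidence interval of 1.21 to 2.73. It did not pass without the block (limma adjusted p = 0.297) and passed with it (adjusted p = 0.0452). In the block fit with 1 array left out at a time it passed in 1 of 12 fits, the one without MyD88-null apoA-I replicate 1 (0.0251), and the adjusted p reached 0.244 without C57BL/6 apoA-I replicate 2 and 0.298 without both arrays with contradicted titles. With the treatment taken from the descriptions, the Hk2 change in C57BL/6 cells was 0.51. Within slides that held both C57BL/6 treatments, the Hk2 difference was 0.65 and 1.06, and within scan days 1 and 3 it was 0.86 and 0.88. For MyD88-null cells the Hk2 difference was 0.61 (SE 0.26; limma adjusted p = 0.557). Hk1, the form found in most cells, and Hk3, a form of blood cells, had changes of -0.15 and 0.10 in C57BL/6 cells and of -0.13 and -0.15 in MyD88-null cells.

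In upper glycolysis, Pfkp, the platelet-type phosphofructokinase, was higher with apoA-I without overlap in both genotypes, by 0.35 (SE 0.17; limma adjusted p = 0.772) and 0.30 (SE 0.17; adjusted p = 0.705). Its SD within groups, pooled over the 4 groups, was 0.12, the lowest of the 33 genes. The other phosphofructokinase genes, Pfkl of liver and Pfkm of muscle, had changes between -0.02 and 0.21. Pfkfb3 makes fructose 2,6-bisphosphate, the strongest activator of phosphofructokinase. Its change was -0.66 (SE 0.30; adjusted p = 0.697) in C57BL/6 cells and -0.69 (SE 0.30; adjusted p = 0.562) in MyD88-null cells. Its levels in C57BL/6 cells were 2.57, 2.44 and 2.44 without apoA-I and 2.04, 1.41 and 2.03 after it, without overlap. Without MyD88-null apoA-I replicate 2 the MyD88-null value was -0.40. The gene's other 2 probes gave -0.04 and -0.23 in C57BL/6 cells and -0.0069 and -0.32 in MyD88-null cells; both were dim, with mean levels of -3.35 and -3.56, and neither was above background on every array. Gpi1, Aldoa, Aldoc and Hk1 had changes of -0.22 to 0.12 over both genotypes. These are glucose 6-phosphate isomerase, 2 aldolases and the hexokinase above.

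No enzyme of lower glycolysis passed the test. Ldha, the lactate dehydrogenase subunit that favours lactate formation, had levels of 6.71, 6.68 and 7.17 in C57BL/6 controls and 6.77, 6.61 and 7.13 with apoA-I. In MyD88-null cells the Ldha levels were 6.70, 6.55 and 7.04 without apoA-I and 6.65, 6.53 and 7.01 after it. All 4 groups overlapped, and replicate 3 was the highest array in each. The change was -0.02 (SE 0.24) and -0.03 (SE 0.24) in the 2 genotypes, and the 95% confidence intervals allow intensity ratios of 0.682 to 1.43 and of 0.676 to 1.42. Pgk1 and Pgam1, which are phosphoglycerate kinase and phosphoglycerate mutase, and Tpi1, triose phosphate isomerase of upper glycolysis, had changes between -0.09 and 0.03. Pkm, pyruvate kinase, had changes of 0.17 and 0.04. Eno1, the common enolase, had changes of -0.29 and -0.46, and the latter lay between -0.78 and -0.28 when 1 array was left out at a time. Eno2, the neuronal enolase that is also a hypoxia target, was higher with apoA-I in every C57BL/6 pair, by 0.31, 0.48 and 0.70. Its mean change there was 0.50 (SE 0.19; limma adjusted p = 0.501), and in MyD88-null cells -0.11 (SE 0.19; adjusted p = 0.896).

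Gapdh had 1 probe, named in the files by an older gene number and placed at chr6:125188005-125188064. It was well above background on 7 of the 12 arrays, with levels of -4.22, -5.21 and -4.69 in C57BL/6 controls and -3.57, -4.36 and -3.87 with apoA-I. In MyD88-null cells the Gapdh levels were -3.24, -5.75 and -4.17 without apoA-I, and -3.001, -5.09 and -4.03 after it. These low values are those of a single dim probe, and no change is given. A further 2 probes with Gapdh-like records carry other gene names, fell outside the rule and were not used. Gapdh is among the most abundant mRNAs of most cells.

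The pyruvate dehydrogenase kinases Pdk1 and Pdk3 inactivate pyruvate dehydrogenase. They had changes of -0.27 and -0.06 in C57BL/6 cells and of -0.27 and -0.77 in MyD88-null cells. The Pdk3 value rests on MyD88-null apoA-I replicate 1, whose level of -1.38 was 1.91 below its control; without that array the change was -0.32. Bnip3 and Bnip3l, which mark mitochondria for removal, had changes of -0.09 and -0.08 in C57BL/6 cells and -0.49 and -0.30 in MyD88-null cells. Without MyD88-null apoA-I replicate 1 the latter were -0.24 for Bnip3 and -0.10 for Bnip3l. Among the collagen prolyl hydroxylase subunits, P4ha1 had differences of 0.46 and 0.15 and P4ha2 of -0.03 and 0.04. Without C57BL/6 control replicate 3, the P4ha1 value in C57BL/6 cells was 0.16. None passed the limma test.

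Of the other hypoxia targets, Ndrg1, a stress-induced gene, was higher with apoA-I in all 6 pairs. Its levels were 3.68, 3.93 and 4.26 in C57BL/6 controls and 4.07, 5.14 and 5.14 with apoA-I, where apoA-I replicate 1 lay among the controls. The Ndrg1 difference was 0.83 (SE 0.33; limma adjusted p = 0.548, and 0.0505 in the block fit) and in MyD88-null cells 0.37 (SE 0.33; adjusted p = 0.8). Ankrd37, a small ankyrin repeat protein induced by HIF-1, went the other way. Its levels were -0.69, -0.92 and -0.90 in C57BL/6 controls and -1.89, -2.12 and -1.07 with apoA-I, without overlap. In MyD88-null cells the Ankrd37 levels were -0.89, -0.89 and -0.03 without apoA-I and -1.58, -3.03 and -0.94 after it, again without overlap. The change was -0.85 (SE 0.50; adjusted p = 0.916) in C57BL/6 cells and -1.25 (SE 0.50; adjusted p = 0.495, or 0.0877 with the block) in MyD88-null cells, and -0.05 in MyD88-null cells with the treatment taken from the descriptions. Without MyD88-null apoA-I replicate 2, the lowest array, the Ankrd37 value in MyD88-null cells was -0.66. Mxi1, an antagonist of MYC, had changes of -0.32 and -0.73, and Bhlhe40, a transcriptional repressor, of -0.22 and -0.63. Without MyD88-null apoA-I replicate 2 the Bhlhe40 value in MyD88-null cells was -0.34, and the Mxi1 value in C57BL/6 cells lay between -0.58 and -0.12 as single arrays were left out. Vegfa, the vascular growth factor, had differences of 0.37 in C57BL/6 cells and -0.30 in MyD88-null cells (limma adjusted p = 0.823). Ero1l, which helps make disulphide bonds in the endoplasmic reticulum, had differences of 0.26 and -0.0035. The genes named here for values that did not pass were, apart from Hif1a, Slc2a1, Gapdh and Ldha, singled out after their values were seen.

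**Figure D2:**
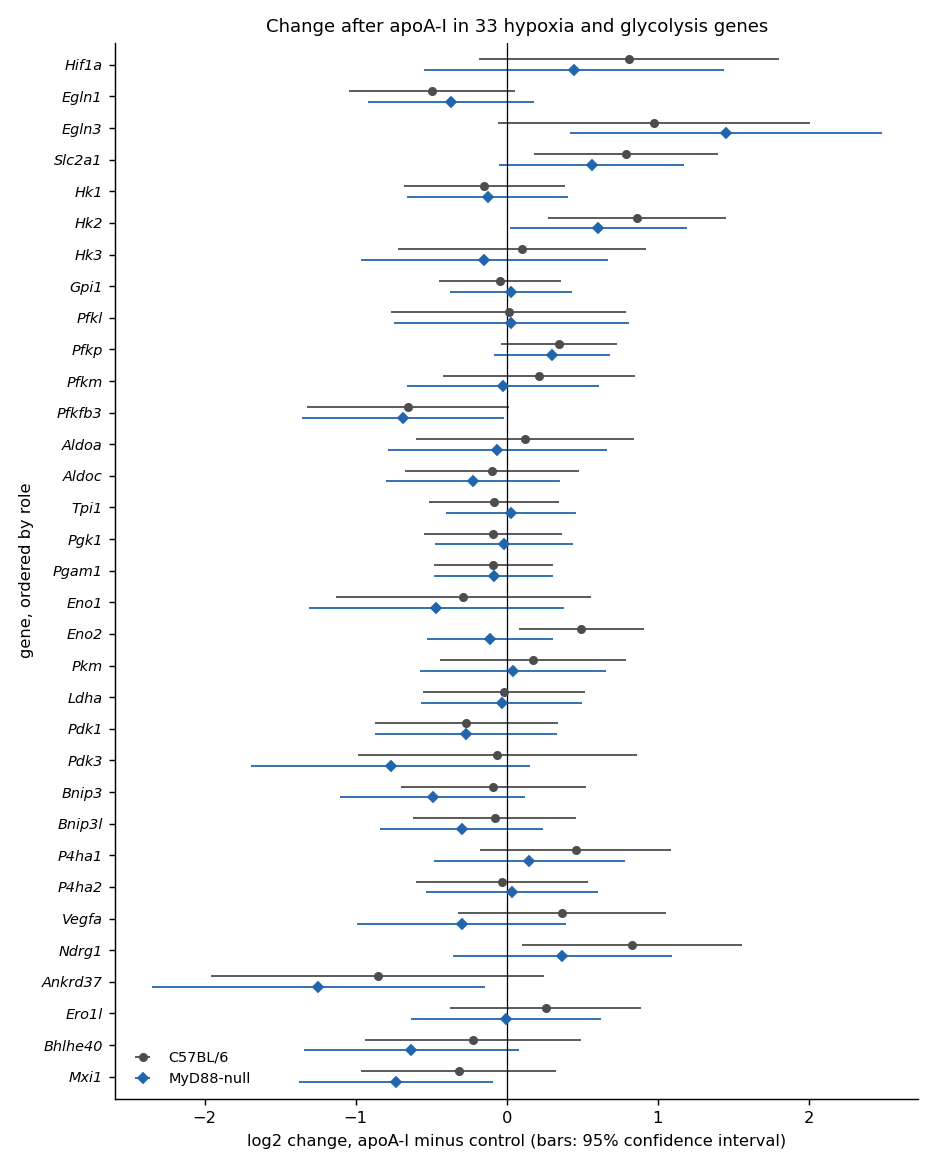
Log2 change (apoA-I minus control) of the 33 measured genes in C57BL/6 cells (grey circles) and MyD88-null cells (blue diamonds), with 95% confidence intervals from the limma fit, ordered by role. Most intervals include 0; the highest values are those of Egln3 (0.98 and 1.45) and the lowest those of Ankrd37 (-0.85 and -1.25).

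Counted by groups that did not overlap, 5 of the 33 were higher with apoA-I in C57BL/6 cells (Hif1a, Slc2a1, Hk2, Pfkp and Eno2), against 6.75% of all genes, and 2 were lower (Pfkfb3 and Ankrd37), against 6.37%. In MyD88-null cells 3 were higher (Egln3, Slc2a1 and Pfkp), against 6.28% of all genes, and 2 were lower (Ankrd37 and Mxi1), against 5.35%. Taken over the 6 pairs of same-numbered arrays, 5 genes were higher with apoA-I in all 6 pairs, which is 15.2% of the 33 against 11.6% of all genes. These were Egln3, Slc2a1, Hk2, Pfkp and Ndrg1. Another 6 were lower in all 6 pairs, 18.2% against 12% of all genes: Egln1, Pfkfb3, Aldoc, Ankrd37, Bhlhe40 and Mxi1. The shares of the 33 can be read against those of all genes. Known hypoxia targets lay on both sides, with Egln3 and Ndrg1 above and Ankrd37 and Mxi1 below their controls in every pair.

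**Figure D3:**
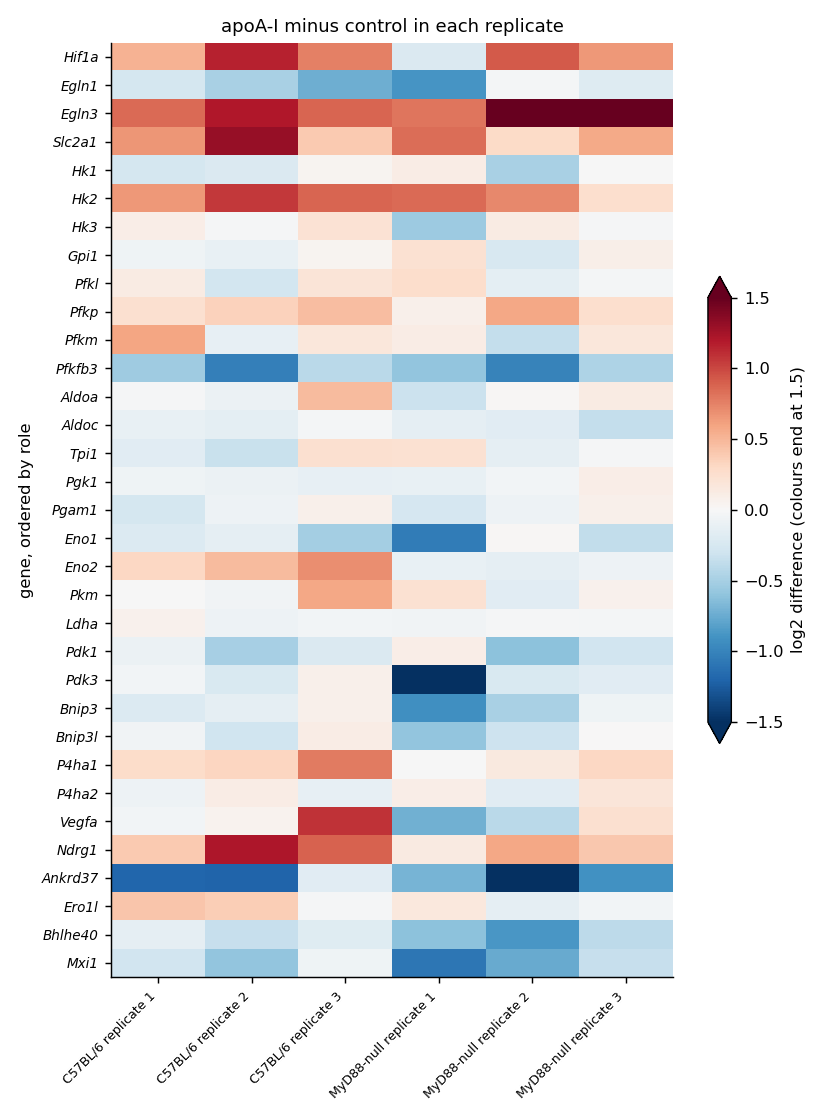
Log2 difference, apoA-I minus control, for each of the 33 genes in each replicate of C57BL/6 and MyD88-null cells (red higher with apoA-I, blue lower). Egln3, Slc2a1, Hk2, Pfkp and Ndrg1 are red in all 6 columns, and Pfkfb3 and Ankrd37 are blue in all 6.

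The scale of the arrays bears on the MyD88-null values. Scaled on the array median in place of the 75th percentile, the median change of all genes with apoA-I in MyD88-null cells became -0.40, and that of the 33 genes -0.51. On that scale the changes of Ndrg1 (-0.08) and Pfkp (-0.15) in MyD88-null cells turned negative, that of Hif1a was -0.0031, and those of Egln3, Hk2 and Slc2a1 were 1.00, 0.16 and 0.11. Under normexp background correction, quantile normalization and the deposited value table, the Hk2 and Slc2a1 changes in MyD88-null cells lay between 0.44 and 0.65 and the Egln3 change was at most 1.25.

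Promoters are shown for the genes higher with apoA-I in every pair that have an entry, Egln3, Hk2, Slc2a1 and Pfkp, and for Ankrd37 as 1 example of those lower in every pair. Ndrg1 and Bhlhe40 have no entry. HIF binds the core letters ACGTG or GCGTG, so both strands of the 250 bases before each RefSeq start (build GRCm38.p6) were searched for these 2 words, counting overlapping matches on opposite strands separately. Of the 34 genes, 30 had a RefSeq promoter entry and 11 had several. A core was found in 36 of their 46 entries (78.3%) and in 38.6% of all 32851 entries. Over all entries, 16.6% held ACGTG and 28.2% held GCGTG. The genes' windows were also richer in G and C, with a median of 61% against 52.4%. The windows below run 5′ to 3′ on the gene's strand and end at the base before the start, with the cores of either strand in capitals. That of Egln3 is chr12:54203875-54204124 (minus strand), that of Hk2 chr6:82774455-82774704 (minus), that of Slc2a1 chr4:119108495-119108744 (plus), that of Pfkp chr13:6648772-6649021 (minus) and that of Ankrd37 chr8:45999851-46000100 (minus).
Egln3: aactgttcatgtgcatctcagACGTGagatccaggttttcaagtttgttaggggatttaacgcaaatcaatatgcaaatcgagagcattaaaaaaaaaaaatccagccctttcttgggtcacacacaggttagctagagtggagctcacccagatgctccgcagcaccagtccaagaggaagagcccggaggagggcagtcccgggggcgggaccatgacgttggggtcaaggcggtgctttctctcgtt
Hk2: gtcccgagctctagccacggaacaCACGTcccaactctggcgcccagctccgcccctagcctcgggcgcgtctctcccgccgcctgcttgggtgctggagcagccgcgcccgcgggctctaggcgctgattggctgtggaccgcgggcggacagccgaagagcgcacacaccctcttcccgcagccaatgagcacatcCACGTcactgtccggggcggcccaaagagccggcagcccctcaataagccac
Slc2a1: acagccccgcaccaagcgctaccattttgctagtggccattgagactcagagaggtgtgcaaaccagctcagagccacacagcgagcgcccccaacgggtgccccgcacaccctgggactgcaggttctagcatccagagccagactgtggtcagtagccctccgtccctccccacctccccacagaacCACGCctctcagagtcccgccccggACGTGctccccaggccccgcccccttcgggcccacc
Pfkp: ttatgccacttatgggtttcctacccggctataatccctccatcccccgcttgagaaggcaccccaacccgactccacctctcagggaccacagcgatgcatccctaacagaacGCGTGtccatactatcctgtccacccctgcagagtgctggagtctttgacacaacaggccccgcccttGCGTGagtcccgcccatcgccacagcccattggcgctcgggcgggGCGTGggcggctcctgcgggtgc
Ankrd37: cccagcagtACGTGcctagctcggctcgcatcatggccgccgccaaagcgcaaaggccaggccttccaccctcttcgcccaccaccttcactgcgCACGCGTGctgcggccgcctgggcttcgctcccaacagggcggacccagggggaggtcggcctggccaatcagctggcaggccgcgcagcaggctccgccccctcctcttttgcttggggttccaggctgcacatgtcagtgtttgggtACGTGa
Egln3 had 1 core, Hk2 2, Slc2a1 2, Pfkp 3 and Ankrd37 4, of which 2 overlap across strands. Ldha, which differed little between treatments, had 5 in 1 of its entries, among them 2 pairs that overlap across strands. Eno2 had none. Of the other genes lower with apoA-I in every pair, Egln1 had 2, Pfkfb3 had 3 and 1 in its 2 entries, Aldoc had 1 in each of 2, and Mxi1 had 0, 1 and 1 in its 3. A match is a description of these letters and shows no binding.

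Between genotypes, none of the 33 passed the limma test in controls, where 0.0955% of all genes did, or with apoA-I, where 0.0657% did. With the replicate block the count was 0 in both, against 0.591% and 0.227% of all genes. At an unadjusted p under 0.05 the counts were 2 of 33 in controls, against 3.52% of all genes, and 1 with apoA-I, against 3.92%. In controls, Eno2 was 0.73 higher in MyD88-null cells (SE 0.19; adjusted p = 0.473), with levels of 1.38, 1.38 and 1.11 in C57BL/6 and 2.19, 1.83 and 2.04 in MyD88-null cells. Mxi1 was 0.78 higher (SE 0.29), with levels of 1.71, 1.42 and 0.79 in C57BL/6 and 2.23, 2.26 and 1.75 in MyD88-null controls. Bnip3l and Bnip3 were 0.54 (SE 0.24) and 0.43 (SE 0.28) higher, and the Bnip3 difference was 0.25 without C57BL/6 control replicate 3. In these 4 genes the control groups did not overlap, against 6.84% of all genes higher in this way. Pfkp was the gene lower without overlap (-0.32, SE 0.17), against 3.48% of all genes.

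With apoA-I, no gene of the 33 was higher in MyD88-null cells without overlap, against 3.21% of all genes. Slc2a1 and Pfkp were lower without overlap, by 0.48 (SE 0.27) and 0.36 (SE 0.17) on the log2 scale, against 2.41% of all genes. Vegfa differed most (-0.87, SE 0.31; limma adjusted p = 0.998), with levels of -0.30, 0.30 and 0.78 in C57BL/6 and -1.02, -0.61 and -0.20 in MyD88-null cells, which overlapped. Hif1a was 0.36 lower in MyD88-null controls and 0.73 lower with apoA-I (differences of -0.36 and -0.73, SE 0.45 each). Without MyD88-null apoA-I replicate 1 the Hif1a difference with apoA-I was -0.17, and without MyD88-null control replicate 1 that in controls was -0.14.

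**Figure D4:**
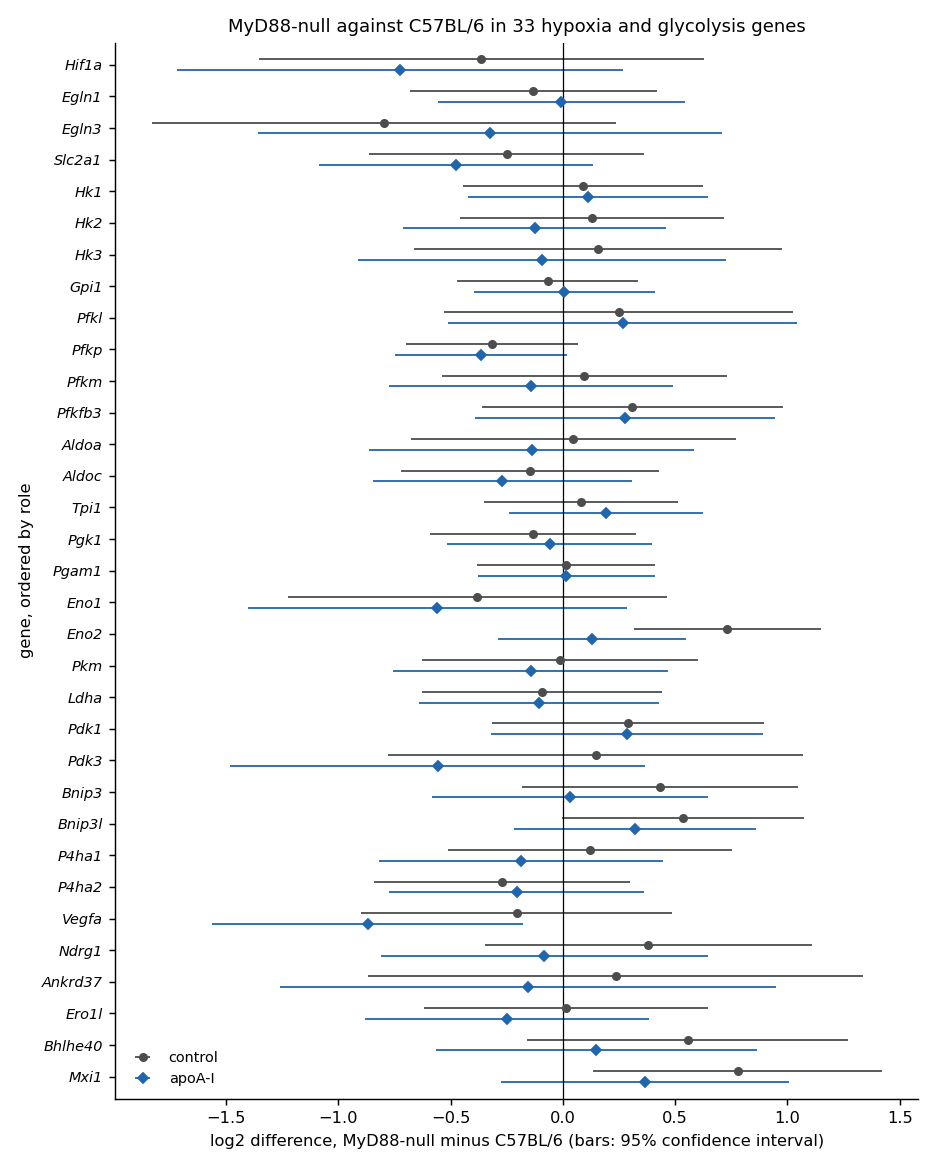
Log2 difference (MyD88-null minus C57BL/6) of the 33 genes in controls (grey circles) and with apoA-I (blue diamonds), with 95% confidence intervals from the limma fit. Eno2 (0.73) and Mxi1 (0.78) in controls and Vegfa (-0.87) with apoA-I are the genes whose intervals exclude 0, and none passed after adjustment over all genes.

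The response to apoA-I was compared between genotypes directly, as the MyD88-null change minus the C57BL/6 change. No gene of the 33 passed, and 0% of all genes passed with or without the block. At an unadjusted p under 0.05 the count was 1 of 33, against 1.17% of all genes. That gene was Eno2, with a difference of -0.60 (SE 0.27; limma adjusted p = 1, or 0.64 with the block) and a 95% confidence interval of -1.19 to -0.01. The difference was negative for 24 of the 33 and positive for 9, with a median of -0.18 against 0.05 over all genes. The share of all genes with a negative difference is not given, and the 33 genes share the same arrays. With 1 array left out at a time, the difference ran from -0.70 to 0.20 for Hif1a and from -0.50 to 0.09 for Eno1. With all arrays, the difference for Slc2a1 was -0.23, with an interval of -1.09 to 0.64. For Hk2 it was -0.26, with an interval of -1.09 to 0.57. For Hif1a the interval was -1.77 to 1.04 and for Egln3 -0.99 to 1.94, so at 3 arrays a group these data do not show whether the responses were alike.

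The replicates also differed from one another. All 4 arrays of replicate 3, which were also the arrays of the last scan day and of a later software version, lay above the other 8 in Ldha and Ero1l, 6.06% of the 33 against 8.99% of all genes. They lay below the other 8 in Hk3, Pfkl, Pfkm and Aldoa, 12.1% against 12.5% of all genes. Experiment, scan day and software version cannot be told apart here. MyD88-null apoA-I replicate 1 had the lowest level of the 12 arrays in Hif1a (0.37), Pdk3 (-1.38), Bnip3 (0.66) and Vegfa (-1.02). It had the highest level of the 12 in Pfkl (2.52), Tpi1 (6.18) and Pkm (6.34). The shares of all genes with their lowest or highest level on this array are not given.

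**Figure D5:**
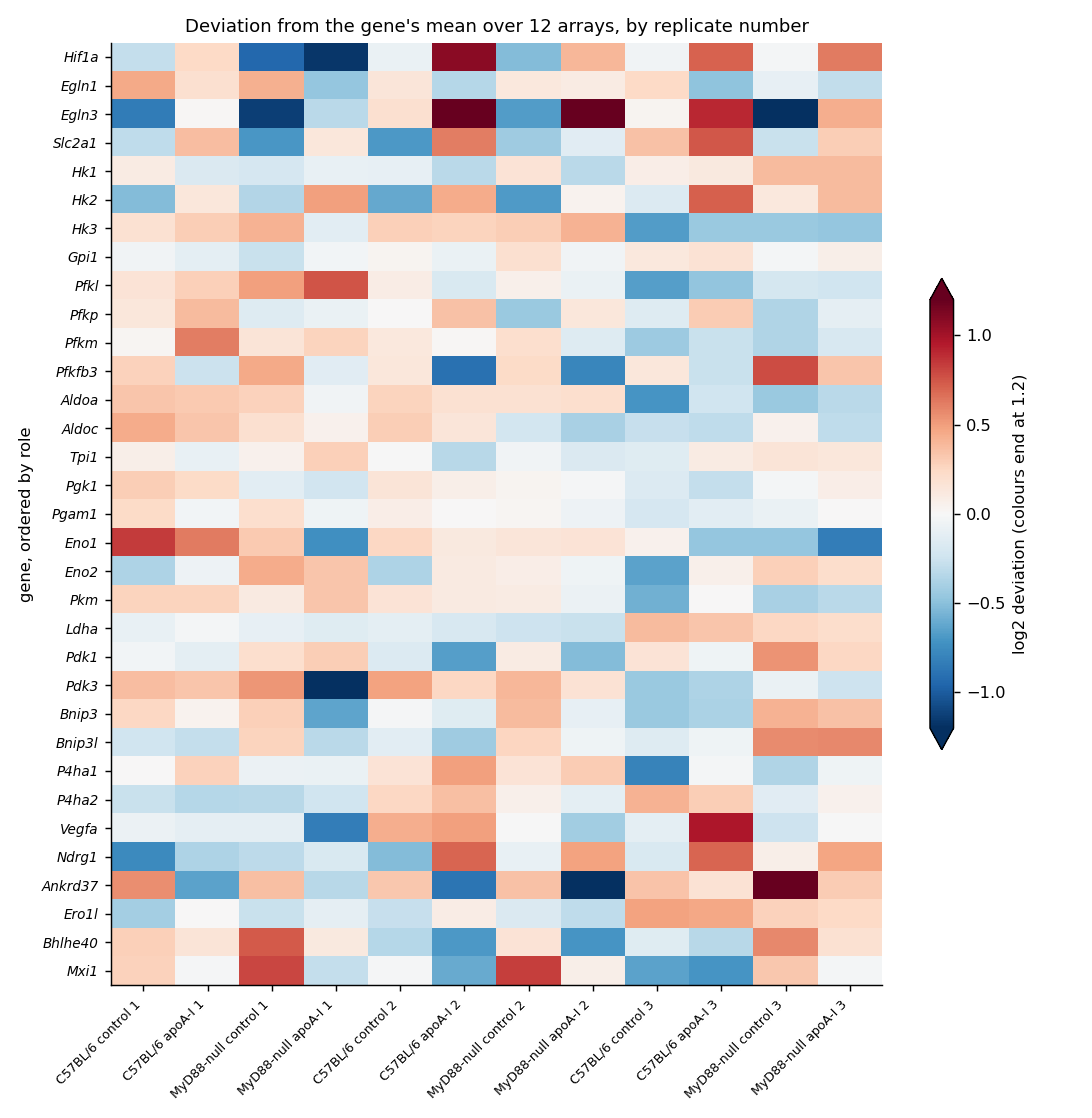
Deviation of each of the 33 genes, on the log2 scale, from its mean over the 12 arrays, with arrays ordered by replicate number (red above the mean, blue below). The 4 arrays of replicate 3 are blue in Hk3, Pfkl, Pfkm and Aldoa and red in Ldha and Ero1l.

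The wider pathway was followed in 84 further genes, of which 76 were measured: other HIF subunits and regulators, hypoxia targets, glycolysis and lactate genes, and genes of pyruvate oxidation and the pentose phosphate pathway. With apoA-I, 1 of the 76 was higher and none lower in each genotype, where 0.83% and 1.14% of all genes passed. It was Adm, the vasodilator peptide adrenomedullin, a known target of both hypoxia and inflammation. Adm levels were -1.25, -0.65 and -0.17 in C57BL/6 controls and 1.70, 2.69 and 2.53 with apoA-I. In MyD88-null cells they were -2.16, -2.33 and -2.35 without apoA-I and 0.92, 0.59 and 0.47 after it. Adm rose by 2.99 (SE 0.33; limma adjusted p = 0.00146) in C57BL/6 cells and by 2.94 (SE 0.33; adjusted p = 0.000953) in MyD88-null cells, without overlap in either. These 2 calls are lost if the treatment is taken from the descriptions. With the block, 3 of the 76 were higher and 0 lower in C57BL/6 cells, against 3.41% of all genes in either direction. In MyD88-null cells 3 were higher and 1 lower, against 4.07%. Among them were the kinase gene Pim1 (1.75 in C57BL/6 and 1.11 in MyD88-null cells) and Pdp1 (-1.43 in MyD88-null cells). Pdp1 is the phosphatase that reactivates pyruvate dehydrogenase. Both genes were named after their values were seen. The median change of the 76 was 0.03 in C57BL/6 cells and -0.07 in MyD88-null cells. None of the 12 measured HIF subunits and regulators, the 18 other glycolysis and lactate genes or the 6 pentose phosphate genes passed in any comparison, with or without the block.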

How the data were processed

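RNA of 12 samples was hybridised to 12 one-colour Agilent mouse arrays. The deposited scanner files hold processed intensity values, which per the file headers are Cy3 signals corrected for background and detrended within the array, not scaled between arrays. The submitters' processing notes name Agilent Feature Extraction 9.5; per the file headers it was 9.5.1.1 or 9.5.3.1. The deposited log10 value table, whose scale was read from its match to the scanner values, served as an alternative; its normalization and centring stay unknown, and its column medians ran from 1.82 to 1.87.

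Each log2 processed intensity was taken relative to the array's 75th percentile; spots of a probe were averaged, outlier-marked spots dropped, and 24351 probes kept, each well above background throughout 1 or more groups. The probe with the highest mean stood for a gene. limma 3.58.1 in R 4.3.3 fitted 4 group means over 12 arrays (8 residual degrees of freedom), with 95% intervals. The number of arrays limits precision. The authors' flags for background are in the same deposited files. The fit was tested on simulated data.

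Same-numbered arrays deviated together (r from 0.296 to 0.859, median 0.611, over 18 pairs). Pairs with different numbers had r from -0.812 to 0.547 (median -0.399), so the ranges overlapped. Deviations were taken from each group's mean and cancel out within a group. The different-number values are therefore not independent of the same-number ones. The 0.547 was between the apoA-I array of replicate 2 with MyD88 present and MyD88-null control replicate 1. With MyD88-null control replicate 2, its own number, that apoA-I array had r = 0.353. Because of the same-number correlations, and because the series describes experiments of 4 samples, block values are printed where they change a call. No label ties a replicate to its own mice, so the spread tested may be technical. Groups follow titles.

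Every member is accounted for. Values on each array were set to be given for genes passing with or without the block and for Hif1a, Slc2a1, Gapdh and Ldha; wider genes were to be named only where they passed, without the block. The members and lists were chosen with earlier results of these data known. Alternatives were background correction, scaling, filter, probe choice, value table, block, samples fitted, left-out arrays and conflicting descriptions. Probe positions are of build mm7, whose exon annotation was not used here. Gapdh was matched through its gene number. A result of the wider list is not reported here.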

Additional observations from a re-analysis of the deposited data

How the results depend on the processing

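The count of the 33 genes passing was 0 in all 5 comparisons as reported, and it stayed 0 under every alternative run without leaving arrays out except 1: the replicate block gave 1 gene for apoA-I in C57BL/6 cells (Hk2) and 1 in MyD88-null cells (Egln3). Leaving out each array gave counts of 0 to 0 without the block. With the block, chosen to be run so after seeing the data, leaving out each array gave 0 to 1 genes in C57BL/6 cells and 0 to 2 in MyD88-null cells, and leaving out both arrays with contradicted titles gave 0; the cause was not tested. The 3 comparisons of genotype or of responses stayed at 0 under all alternatives. Scaling on the array median moved the median change of the 33 genes to -0.51 with apoA-I in MyD88-null cells and to -0.57 for the difference of responses. The median of all genes moved on that scale too, to -0.40 and -0.34. Over all genes, calls for apoA-I in C57BL/6 and MyD88-null cells numbered 139 and 191 as reported, 571 and 682 with the replicate block, 324 and 357 with the scan day as a block, 80 and 83 on the array median, 81 and 90 with only the groups compared, 59 and 90 without both contradicted arrays, and 0 and 0 with the treatment from the descriptions. Leaving out 1 array at a time gave 66 (without C57BL/6 apoA-I replicate 2) to 156 and 115 (without MyD88-null apoA-I replicate 2) to 186 calls, and with the block 136 to 788 and 248 to 789, lowest without the same 2 arrays. Between genotypes it gave 6 to 16 calls in controls and 8 to 13 with apoA-I, and with the block 39 to 109 and 5 to 65. Without a filter it was 83 of 27671 in C57BL/6 cells. Between genotypes the 16 calls in controls and 11 with apoA-I became 99 and 38 with the replicate block, 2 and 5 with the slide as a block, 1 and 5 with only the groups compared, 2 and 6 without both contradicted arrays and 2 and 2 with the treatment from the descriptions. Normexp gave 9 in controls, a filter on all 12 arrays gave 3 with apoA-I, and the scan day block gave 17 with apoA-I. The difference of responses has no value with only the groups compared. With 3 arrays a group, the 95% interval of a change was widest for Ankrd37 and narrowest for Pfkp.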

Other observations

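The 33 genes differed in how steady they were within groups. The pooled SD within groups ran from 0.12 in Pfkp to 0.65 in Ankrd37, with a median of 0.32 against 0.46 over all genes. The highest SDs after Ankrd37 were those of Egln3 (0.61), Hif1a (0.58), Pdk3 (0.54) and Eno1 (0.48), and the lowest after Pfkp were those of Pgam1 (0.14), Gpi1 (0.15) and Eno2 (0.16).

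Different probes of a gene did not always give the same value. A further probe of Gpi1 gave 1.33 (SE 0.98) in C57BL/6 cells and 1.04 (SE 0.98) in MyD88-null cells after apoA-I, where the probe used gave -0.04 and 0.03; the further probe was dim, with a mean level of -2.73. Another probe of Pfkp gave 0.82 and 1.26. The further probes of Pfkp had mean levels of -0.26 and -1.98, and the probe used had 2.44. The 3 probes of Vegfa gave -0.30, 0.01 and 0.28 in MyD88-null cells. No probe of these 3 genes passed the limma test on its own.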
